A study of Mus musculus with 9 samples.

Results

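Pax7 and the myogenic determination factors Myf5, Myod1 and Myog were followed in muscle stem cells of 3 ages. They were taken as every array probe annotated to one of these 4 genes, which gave 5 of the 24538 probes measured: 1 each for Pax7 (ILMN_2709591), Myf5 (ILMN_2710656) and Myod1 (ILMN_1233507) and 2 for Myog, a brighter one (ILMN_2863674) and a dimmer one (ILMN_2621812). The cells came from muscle of C57BL/6 mice, with 3 fetal arrays at embryonic day 16.5, 3 neonatal arrays at 7 days after birth and 3 adult arrays at 2 months of age. At every age they had been flow sorted on α7-integrin, a laminin receptor subunit, and on the surface protein CD34, and no transgene, genotype difference or treatment is named for any group. The sex of the mice, and whether animals were pooled, are not given in the sources used here. No label ties a replicate to an animal of its own, so p-values cover only the scatter among these arrays, some or all of which may be technical.

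Pax7 is a paired-box transcription factor that marks muscle stem cells and is needed to maintain them. Myf5, Myod1 and Myog are basic helix-loop-helix (bHLH) factors that bind E boxes as dimers with E proteins. Myf5 and Myod1 act in commitment to the myogenic lineage, and Myog acts later, as cells leave the cell cycle and differentiate. Quiescent adult stem cells are known for Pax7 with little Myog, and cycling myoblasts for Pax7 with Myod1.

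RefSeq promoter windows of the GRCm38.p6 assembly, from 250 bases before to 50 bases after a gene's start, were found for 3 of the 4 genes. Those of Myog and Pax7 are shown because Pax7 and the brighter Myog probe were called in opposite directions between neonatal and adult cells. The dimmer Myog probe was not called, and the call of the brighter one depended on single arrays. Myog is also a known target of E box factors. Capitals mark matches, on either strand, to the E box CANNTG.
Myog, chr1:134289754-134290053, plus strand: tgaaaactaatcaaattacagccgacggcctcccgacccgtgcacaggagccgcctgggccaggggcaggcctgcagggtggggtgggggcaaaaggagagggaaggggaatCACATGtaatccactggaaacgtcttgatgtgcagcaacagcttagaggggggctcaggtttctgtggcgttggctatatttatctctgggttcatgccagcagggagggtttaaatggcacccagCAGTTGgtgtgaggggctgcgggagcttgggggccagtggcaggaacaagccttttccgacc
Pax7, chr4:139832919-139833218, minus strand: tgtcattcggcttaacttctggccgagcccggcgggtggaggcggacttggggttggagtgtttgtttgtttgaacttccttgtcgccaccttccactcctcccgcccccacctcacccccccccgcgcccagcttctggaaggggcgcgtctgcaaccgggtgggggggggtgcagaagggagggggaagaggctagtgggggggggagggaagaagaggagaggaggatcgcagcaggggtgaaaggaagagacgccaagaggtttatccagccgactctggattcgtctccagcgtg
The Myog window held 2 E boxes, CACATG from -138 to -133 and CAGTTG from -12 to -7 relative to the start. The Pax7 window held no E box. Neither window matched a strict form of the MEF2 consensus or the TATA box TATAAA, which were searched as well. The stretch ctatatttat in the Myog window missed that strict MEF2 form by its last base alone. Absence of a strict match therefore does not show that a window lacks a MEF2 site. None of the matches overlapped another. Of 32851 promoter windows of the same length, 72.3% held at least 1 E box, 39.6% held at least 2, 3.19% held a MEF2 match and 13.6% a TATA box. The Myf5 window held 1 match, to the letters of the TATA box, from 21 to 26 after the annotated start and not before it.

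The arrays carry no read depth, and their number limits the precision. Values are log2 of the deposited intensity, which includes background: the lowest value per array lay between 6.88 and 7.10, the array medians between 8.58 and 8.60 and the highest values between 15.86 and 16.30, so the change of a dim probe is compressed. Itga7 (12.14, 12.61 and 13.01 on average in fetal, neonatal and adult arrays) and Cd34 (9.11, 9.16 and 9.44), the genes of the sort, lay above the array medians at every age. Medians of marker lists of other cell types moved with age. For 10 endothelial markers they were 7.85 to 8.37 in fetal, 7.87 to 8.76 in neonatal and 9.16 to 10.15 in adult arrays, for 10 mural and smooth muscle markers 9.02 to 9.73, 8.51 to 9.31 and 10.25 to 11.29, and for 6 erythroid markers 8.22 to 9.53, 12.17 to 13.83 and 10.37 to 10.71. For 13 fibroadipogenic markers, genes of connective tissue cells, the medians were 10.62 to 10.76, 9.65 to 11.60 and 10.01 to 10.43. On that list neonatal replicate 1 stood at 11.60 against 9.82 and 9.65 in the other neonatal arrays. It was also the highest neonatal array for the endothelial (8.76 against 7.87 and 7.90) and mural markers (9.31 against 8.70 and 8.51). For 5 Schwann and neural markers the medians were 10.10 to 10.25, 9.43 to 11.12, the highest in neonatal replicate 1, and 11.48 to 12.04. Of these, Mbp, a myelin gene, reached 13.31 to 13.95 in adult arrays, against 7.67 to 8.23 in fetal and 8.48 to 11.12 in neonatal arrays, and Sox10, a glial transcription factor gene, reached 10.13 to 10.72, against 7.33 to 7.83 in all younger arrays. For 8 muscle fibre markers the medians were 7.98 to 8.16, 8.51 to 9.26 and 8.76 to 9.08. For 4 immune markers the medians were 7.52 to 7.75, 7.56 to 7.71 and 7.73 to 8.16; 2 of the 4 rose from neonatal to adult cells, with Cd14, a monocyte receptor gene, at 8.93 to 9.58 in adult arrays.

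Pax7 was level from fetal to neonatal cells and higher in adult cells. Its log2 intensity was 8.42, 8.54 and 8.50 in fetal replicates 1 to 3, 8.45, 8.57 and 8.47 in neonatal replicates 1 to 3 and 9.99, 9.63 and 9.28 in adult replicates 1 to 3. The fetal and neonatal arrays overlapped, and every adult array lay above all 6 younger arrays. The group means were 8.48 ± 0.06, 8.50 ± 0.06 and 9.63 ± 0.35 (SD, n = 3 each), so adult arrays also varied most among themselves. Pax7 rose by 1.13 between the neonatal and the adult arrays (SE 0.16, limma adjusted p = 0.000238), a 2.19-fold change of intensity, and by 1.15 between the fetal and the adult arrays (SE 0.16, limma adjusted p = 0.000125). The fetal to neonatal change was 0.01 with a 95% interval from -0.33 to 0.36 (limma adjusted p = 0.975). Of all probes the Pax7 probe ranked near the middle, at percentile 46.4 to 49.4 of its array in fetal and neonatal arrays and 61.4 to 71.6 in adult arrays. In bulk samples like these, fewer cells of a type and less RNA per cell cannot be told apart. The adult arrays with more Pax7 also had higher endothelial, mural and Schwann marker medians than the younger arrays, and the part of that in the Pax7 values was not tested.

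Myod1 moved at the other step. It measured 10.93, 10.95 and 11.12 in fetal replicates 1 to 3, 12.05, 12.11 and 12.32 in neonatal replicates 1 to 3 and 12.12, 12.17 and 11.83 in adult replicates 1 to 3. All fetal arrays lay below all neonatal and adult arrays, and the neonatal and adult arrays overlapped. From fetal to neonatal cells Myod1 rose by 1.16 (SE 0.13, limma adjusted p = 0.000178), which is 2.24-fold, from 11.00 ± 0.10 to 12.16 ± 0.14 (SD, n = 3 each). The adult mean was 12.04 ± 0.18, and adult cells were 1.04 above fetal cells (SE 0.13, limma adjusted p = 5.8e-05). Between neonatal and adult cells the change was -0.12, with a 95% interval from -0.40 to 0.16 (limma adjusted p = 0.524), so a fall as large as the first rise lay outside the interval. In adult replicate 3 Myod1 was lowest of the adult arrays, and without that array the neonatal to adult change was -0.01. The first step was also the step at which erythroid transcripts (5 of 6 markers) and some muscle fibre transcripts (3 of 8 markers) rose. Some fibroadipogenic (4 of 13) and mural and smooth muscle markers (3 of 10) fell at that step, and 0 of either list rose. The part of these changes in the Myod1 values was not tested.

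Myog was the most variable of the 4 genes, and the groups overlapped between neonatal and adult cells. Its brighter probe measured 11.26, 11.45 and 11.45 in fetal replicates 1 to 3, 11.73, 12.54 and 12.97 in neonatal replicates 1 to 3 and 10.41, 9.86 and 12.29 in adult replicates 1 to 3. Every neonatal array stood above every fetal array, adult replicates 1 and 2 stood below all younger arrays, and adult replicate 3 stood above neonatal replicate 1 and all fetal arrays. Neonatal replicate 1, the lowest neonatal array on this probe, had the highest neonatal medians of the fibroadipogenic, endothelial, mural and Schwann marker lists. The part of that in the Myog values was not tested. The group means were 11.39 ± 0.11, 12.41 ± 0.63 and 10.85 ± 1.28 (SD, n = 3 each). On this probe the adult mean fell by 1.56 below the neonatal mean (SE 0.50, 95% interval -2.65 to -0.47, limma adjusted p = 0.0309). Leaving out neonatal replicate 2 (limma adjusted p = 0.0851) or neonatal replicate 3 (0.122) ended that call, and so did leaving out the first (0.107) or the second adult array (0.128). The rise of 1.03 from fetal to neonatal cells was not called (SE 0.50, limma adjusted p = 0.244), nor was the adult to fetal difference of -0.53 (SE 0.50, limma adjusted p = 0.424). Without adult replicate 3 both were called, the first with the same change and a smaller SE of 0.26 (limma adjusted p = 0.0248) and the second at -1.25 (limma adjusted p = 0.00470), and the neonatal to adult change was -2.28 (limma adjusted p = 0.000118).

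The dimmer Myog probe had the same order of group means with smaller differences, none of them called. It measured 8.14, 8.32 and 8.74 in fetal, 8.61, 8.94 and 9.44 in neonatal and 8.28, 7.33 and 9.36 in adult replicates 1 to 3. On both probes adult replicate 2 was the lowest of all 9 arrays and neonatal replicate 3 the highest, and adult replicate 3 lay inside the neonatal range. In adult replicate 2 the dimmer probe ranked at percentile 0.697 of its array, only 0.23 above the lowest value there, so its level in that array is close to a floor. The changes of this probe were 0.60 from fetal to neonatal cells (SE 0.40), -0.68 from neonatal to adult cells (SE 0.40) and -0.08 from fetal to adult cells (SE 0.40), with limma adjusted p of 0.427, 0.227 and 0.894. Without adult replicate 3 its neonatal to adult change was -1.20 and was called (limma adjusted p = 0.00796). Centred on their own means, the 2 probes differed by 0.44 (root mean square over 9 arrays).

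Myf5 was dim at all 3 ages. It measured 7.78, 7.75 and 7.78 in fetal, 7.53, 7.42 and 7.49 in neonatal and 7.62, 7.71 and 7.90 in adult replicates 1 to 3. The neonatal arrays were lowest and did not overlap with the other ages, and fetal and adult arrays overlapped. The probe ranked at percentile 19.7 to 22.7 of its array in fetal, 2.28 to 6.54 in neonatal and 13.1 to 29.2 in adult arrays. The changes of -0.29 from fetal to neonatal (SE 0.11) and 0.26 from neonatal to adult cells (SE 0.11) were not called (limma adjusted p = 0.119 and 0.0811), and the adult to fetal difference was -0.03 with a 95% interval from -0.26 to 0.21. With each array's lowest value subtracted the changes were -0.69 and 0.58 and were again not called. Values without a detection call cannot show whether a probe at this level measured Myf5 or background. Myf6, the remaining gene of the bHLH family, measured 8.32, 8.53 and 8.77 on average in the 3 groups. It was called only between fetal and adult cells, where it rose by 0.45 (SE 0.15, limma adjusted p = 0.0347). That call was lost with only the 2 groups compared in the fit (0.0571). It was also lost without any 1 fetal array or adult replicate 1 (limma adjusted p between 0.0556 and 0.106).

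**Figure D1:**
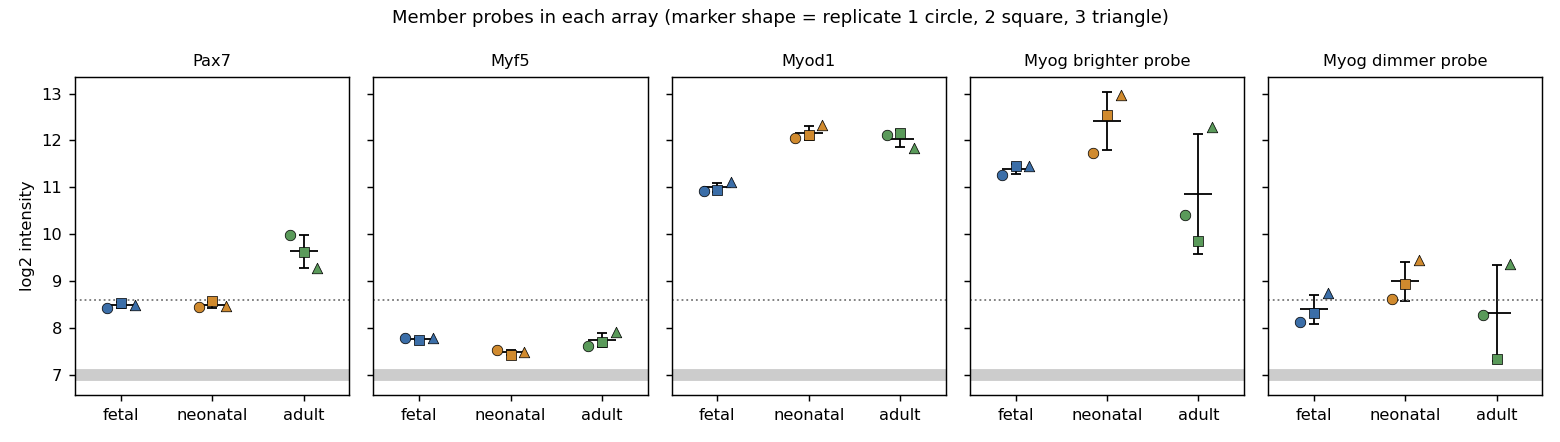
Log2 intensity of the 5 probes in each of 9 arrays, by age, with bars at the group mean ± SD (n = 3); the grey band spans the lowest value of the arrays and the dotted line marks the array median. The 3 adult arrays of Pax7 lie above the 6 younger ones, the 3 fetal arrays of Myod1 lie below the other 6, and adult replicate 3 (triangle) of Myog lies at 12.29 while adult replicates 1 and 2 lie at 10.41 and 9.86.

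The counts per comparison set the members against all probes. From fetal to neonatal cells 1 of the 5 probes was called (Myod1, up), where limma called 10.4% of all probes and 5.04% as rises, and the arrays of 3 of the 5 did not overlap (Myf5, Myod1 and the brighter Myog probe), where 30.7% of all probes did not. From neonatal to adult cells 2 of 5 were called, Pax7 up and the brighter Myog probe down, against 33.0% of all probes. Rises were 15.7% and falls 17.2% of all probes. The arrays of 2 of 5 did not overlap (Pax7 and Myf5), against 44.3%. From fetal to adult cells 2 of 5 were called, Pax7 and Myod1, both up, against 40.5% (19.1% as rises), and the same 2 did not overlap, against 50.7%. With 5 probes, shares of this size single out nothing about these genes. An exact permutation test of 3 against 3 arrays cannot give a two-sided p below 0.1, and it gave 0.1 for each comparison of a member whose arrays did not overlap.

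Whether a gene moved by different amounts at the 2 steps was tested as the neonatal to adult change minus the fetal to neonatal change, in which the neonatal arrays enter both steps. Limma called this difference for 14.3% of all probes (7.03% above 0 and 7.3% below) and for 2 of the 5, Pax7 and Myod1, in opposite directions. For Pax7 the second step exceeded the first by 1.12 (SE 0.27, 95% interval 0.53 to 1.71, limma adjusted p = 0.0187). Leaving out the second (0.0552) or the third neonatal array (0.0917) ended that call. For Myod1 the second step was below the first by a log2 difference of -1.28 (SE 0.22, 95% interval -1.76 to -0.80, limma adjusted p = 0.00387), and the adjusted p lay between 0.00240 and 0.0351 over all alternatives. For the brighter Myog probe the difference of -2.59 was not called (SE 0.86, limma adjusted p = 0.0674). It was called at -3.27 without neonatal replicate 1 (0.0402) and at -3.31 without adult replicate 3 (0.000632).

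**Figure D2:**
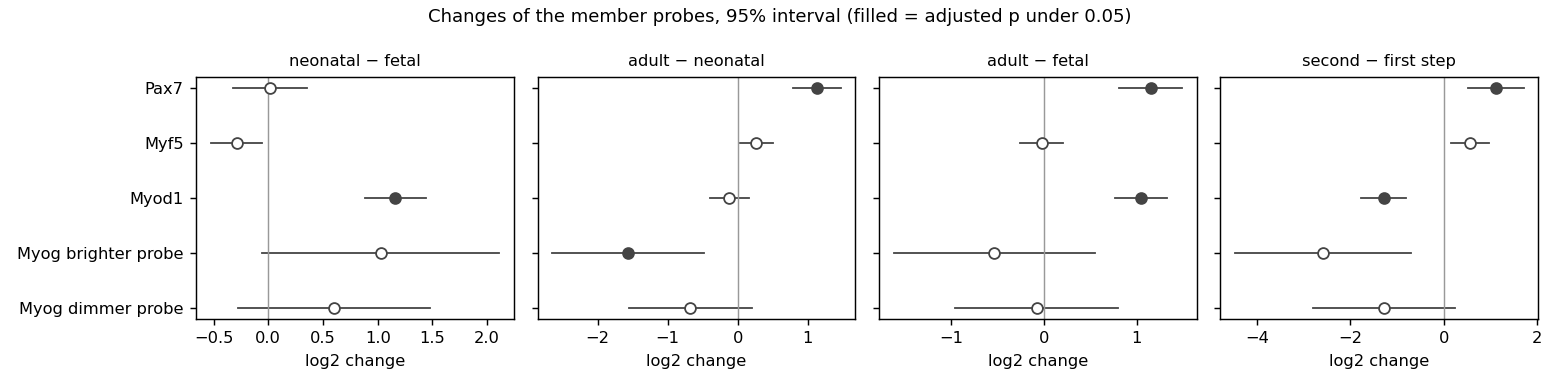
Log2 change of each probe in the 3 comparisons and for the second step minus the first, with 95% intervals; filled points had a limma adjusted p under 0.05. Pax7 is at 1.13 and Myog (brighter probe) at -1.56 from neonatal to adult cells, and Myod1 is at 1.16 from fetal to neonatal cells.

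The adult arrays differed among themselves in more than Myog. The median of 35 cell cycle genes was 8.79, 8.62 and 10.13 in adult replicates 1 to 3, and 11.51 to 11.98 in the fetal and neonatal arrays, and 34 of these genes fell from neonatal to adult cells (background 18.4% of genes), among them the S phase gene Rrm2 by a log2 change of -2.25 (SE 0.20). The median of 36 differentiation and fusion genes was 9.10, 8.83 and 10.27 in adult replicates 1 to 3 against 10.22 to 10.43 in neonatal arrays. Adult replicate 3 thus had the highest cell cycle, differentiation and Myog values of the adult arrays and the lowest Pax7 and Myod1 values. The part of these differences in the Myog result was not tested. Without adult replicate 3 the rise of Pax7 from neonatal to adult cells was 1.31 (limma adjusted p = 2.28e-05).

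**Figure D3:**
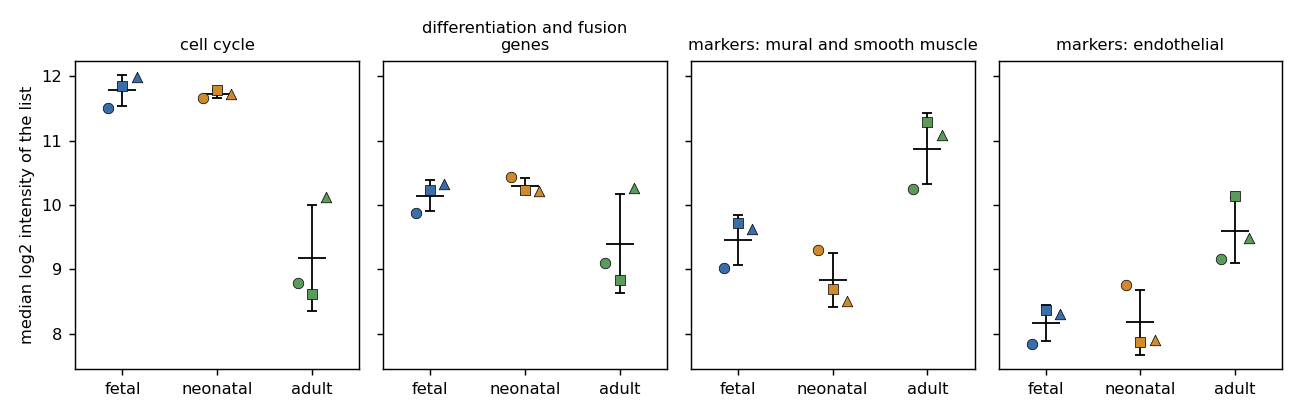
Median log2 intensity per array of 35 cell cycle genes, 36 differentiation and fusion genes, 10 mural and smooth muscle markers and 10 endothelial markers, by age, with bars at the group mean ± SD (n = 3). Adult replicate 3 (triangle) lies at 10.13 for the cell cycle list, above 8.79 and 8.62 in the other adult arrays, and all adult arrays lie above the younger ones in both marker lists.

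The genes whose pattern over the 9 arrays was most like that of each member were ranked by the root mean square difference of centred log2 values. For Pax7 these were Ssty1 (0.08), the endocytic gene Ehd3 (0.09), the ion exchanger gene Slc24a2 (0.09), the interferon-induced gene Isg15 (0.10) and the calcineurin subunit gene Ppp3cc (0.10). In fetal and neonatal arrays all 5 were dim, with group means between 7.43 and 8.12, below the array medians. Since likeness chose these genes, their course with age repeats that of Pax7 and is no further result. For Myod1 they were Cracr2b (0.12), the RNA-binding protein gene Cirbp (0.14), B3gnt8 (0.18), the ganglioside synthase gene St3gal5 (0.19) and the calcium channel gene Orai1 (0.19). For the brighter Myog probe they were the acetylcholine receptor subunit gene Chrna4 (0.27), Tmem201 (0.28), the mitochondrial topoisomerase gene Top1mt (0.31), Mymk (0.38), which encodes the fusion protein myomaker, and Myzap (0.38). These distances are larger than for Pax7 and Myod1, and the other Myog probe, at 0.44, was farther away than all 5. The measure is not scaled, so it grows with the size of the changes. Over the 9 arrays the brighter Myog probe spanned 3.11 and the dimmer one 2.11, against 1.57 for Pax7 and 1.39 for Myod1. Larger distances here therefore do not show a less like course. Mymk measured 9.32, 9.30 and 8.97 in fetal, 10.39, 10.87 and 11.22 in neonatal and 9.21, 7.92 and 10.71 in adult replicates 1 to 3, a likeness to Myog that the choice of the gene fixes. Adult Mymk fell by 1.54 against neonatal (SE 0.51, limma adjusted p = 0.0374), a call that was lost without any 1 array other than neonatal replicate 1 or adult replicate 3 (adjusted p between 0.0505 and 0.128).

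**Figure D4:**
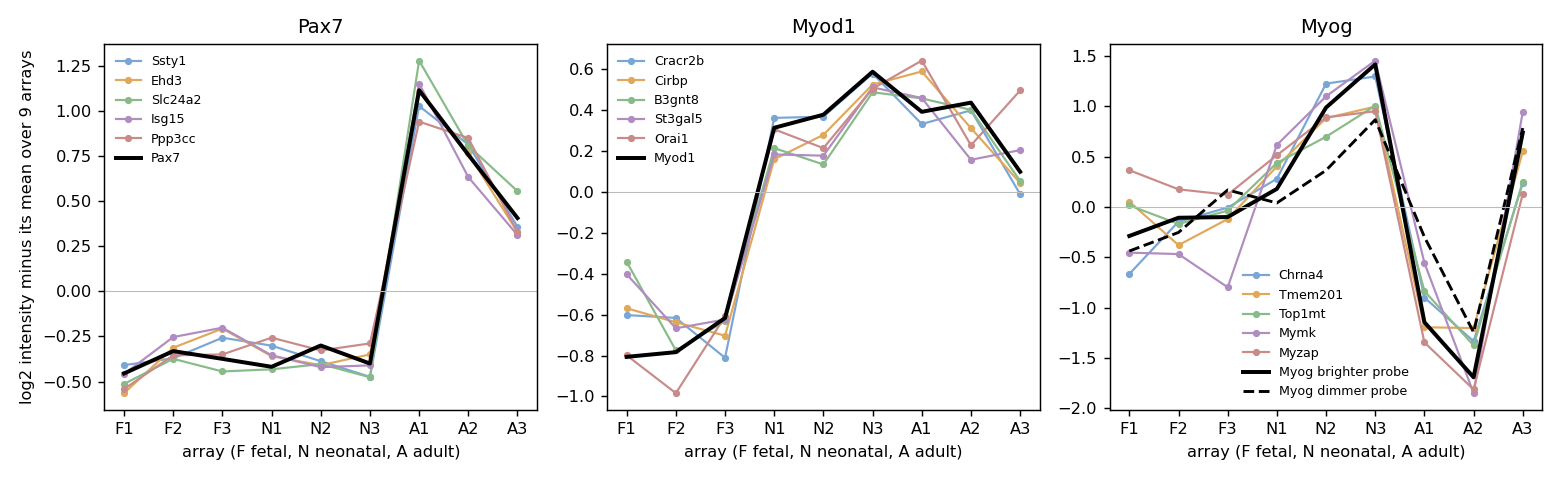
Log2 intensity of Pax7, Myod1 and Myog (black; dashed for the dimmer Myog probe) and of the 5 genes of most like pattern, each minus its own mean over the 9 arrays, in array order. The Pax7 group is high in the 3 adult arrays, the Myod1 group is low in the 3 fetal arrays, and the Myog group is low in adult replicates 1 and 2 and not in adult replicate 3.

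Partners and inhibitors of the bHLH factors differed mainly in adult cells. Of 25 measured E proteins and inhibitors 11 rose and 5 fell from neonatal to adult cells, with a median change of 0.39 (0.01 over all genes), where limma called 18.8% of genes up and 18.4% down. Members that rose included the Id genes, which encode HLH proteins that bind E proteins without binding DNA: Id4 rose by 1.40 (SE 0.18, limma adjusted p = 0.000145) and Id3 by 0.89 (SE 0.17). Id3 measured 10.44, 9.95 and 10.31 in fetal, 10.35, 10.05 and 10.44 in neonatal and 11.46, 10.90 and 11.14 in adult replicates 1 to 3, with no overlap of adult and younger arrays. Id2 rose by 1.37 on its brightest probe, another probe rose by 0.72, and a further one was not called, at -0.20. Id1 was not called at this step, with means of 12.28 and 12.68. The Notch target genes Hey1 (0.81, SE 0.11), Hes1 (0.86, SE 0.21) and Heyl (0.66, SE 0.16) rose as well, as did the repressor gene Bhlhe40 (1.50, SE 0.22) and the deacetylase gene Hdac5 (1.02, SE 0.15). The mural, endothelial and Schwann marker medians were higher in the same adult arrays, and the part of that in these rises was not tested. The E protein gene Tcf12 fell by 0.74 (SE 0.20, limma adjusted p = 0.0143), a call lost without neonatal replicate 2 (0.0642) or adult replicate 1 (0.0532). Other genes of the list fell too: the E protein gene Tcf3 (-0.39, SE 0.13), Snai1 (-0.70, SE 0.18), Snai2 (-0.60, SE 0.18) and Hes6 (-0.88, SE 0.24). The E protein gene Tcf4 was not called, at -0.04. The share of falls in the list was near the background. The 5 falls were 2 without neonatal replicate 2, neonatal replicate 3 or adult replicate 1, and 3 without adult replicate 2. From fetal to neonatal cells, when Myod1 rose, 0 of the 25 rose and 2 fell by limma (background 5.8% and 6.37% of genes), and both falls, Hdac5 (with 2 other probes not called, at -0.53 and -0.10) and Twist2, were lost without fetal replicate 1, fetal replicate 3, neonatal replicate 2 or neonatal replicate 3.

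**Figure D5:**
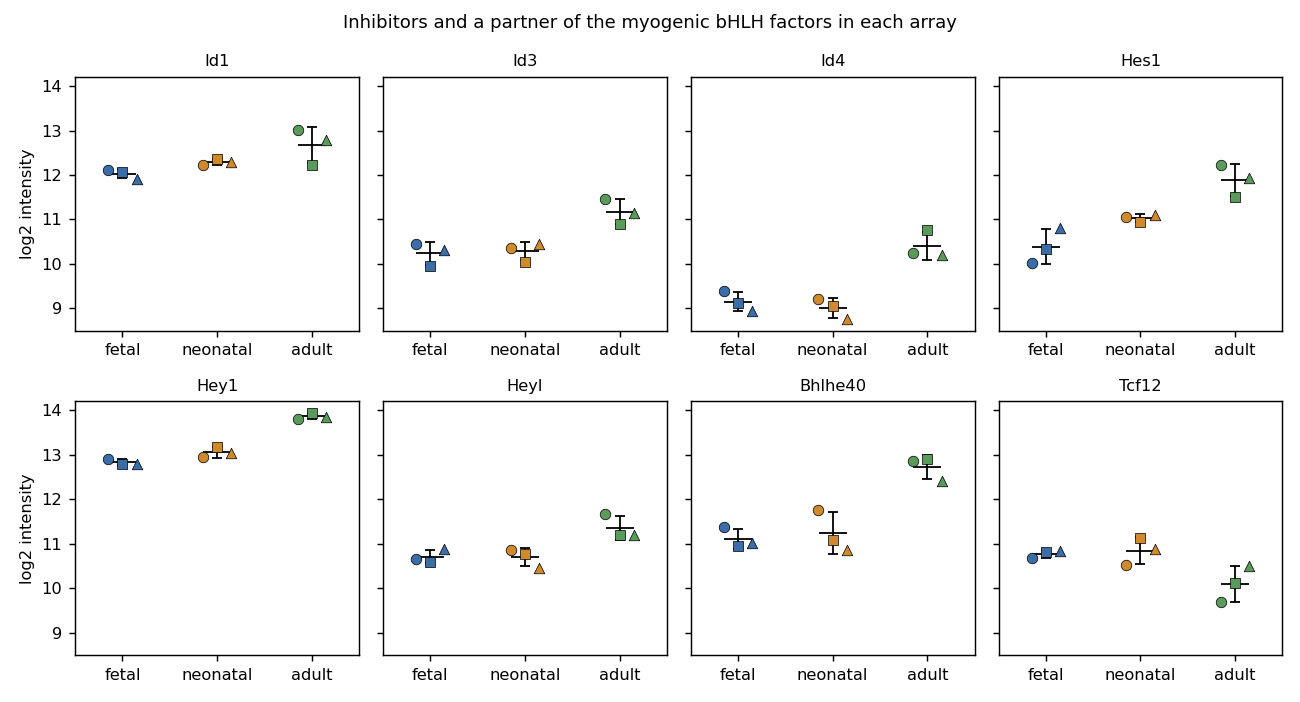
Log2 intensity of inhibitor genes (Id1, Id3, Id4, Hes1, Hey1, Heyl and Bhlhe40) and of the E protein gene Tcf12 in each of 9 arrays, by age, with bars at the group mean ± SD (n = 3). For Id3, Id4, Hes1, Hey1, Heyl and Bhlhe40 all 3 adult arrays lie above all neonatal arrays, and adult replicate 2 of Id1 lies at 12.23, within the neonatal values. Snai1, Snai2 and Hes6, which fell from neonatal to adult cells, are not shown.

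Among 20 cofactors of the bHLH factors, 8 fell and 3 rose from neonatal to adult cells (background 18.4% and 18.8% of genes). The list did not separate activators from repressors such as Ezh2. Those that fell included Smarcd3, a chromatin remodelling subunit used by Myod1 (-0.53, SE 0.10), and the methyltransferase genes Ezh2 (-1.45, SE 0.24) and Prmt5 (-0.63, SE 0.13). Ezh2 measured 10.75, 10.96 and 11.64 in adult replicates 1 to 3, highest in replicate 3, as the cell cycle median was. The part of the cell cycle difference in its fall was not tested. Mef2c, a MADS-box factor that works with Myog, rose by 0.74 (SE 0.18, limma adjusted p = 0.00768). Of 36 differentiation and fusion genes 12 fell and 6 rose at this step, against the same 18.4% and 18.8% of all genes, with 7 falls without adult replicate 1. The share of rises was near the background. The myosin gene Myh8 fell by 2.79 (SE 0.37, limma adjusted p = 0.000188), from 11.30, 11.27 and 11.48 in neonatal to 8.28, 7.89 and 9.52 in adult replicates 1 to 3. Des, the intermediate filament gene that is also a mural marker, rose by 1.71 (SE 0.14), Myom1, a sarcomere gene, by 1.40 (SE 0.11), Unc45b, a myosin chaperone gene, by 0.91 (SE 0.10) and Musk, the synapse kinase gene, by 0.79 (SE 0.13), so downstream genes did not move in one direction with Myog. From fetal to neonatal cells 5 of the 36 rose and 3 fell (background 5.8% and 6.37%), among them Chrna1, the muscle acetylcholine receptor gene, which rose by 1.89 (SE 0.15), and Tnni2, a fast troponin gene, which fell by 2.72 (SE 0.22). The 5 rises were 3 without fetal replicate 2, fetal replicate 3, neonatal replicate 1 or neonatal replicate 3 and 8 without adult replicate 3, and the 3 falls were 5 without neonatal replicate 1.

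Other genes of stem cell identity had courses of their own beside Pax7. From fetal to neonatal cells 7 of 34 rose and 2 fell (background 5.8% and 6.37% of genes, with the falls near it), and from neonatal to adult cells 12 rose, or 7 without neonatal replicate 3, and 3 fell, or 1 without adult replicate 2 (background 18.8% and 18.4%). The 2 falls at the first step were 0 without any 1 fetal array, neonatal replicate 2 or neonatal replicate 3 and 4 without adult replicate 3. Cd82, a tetraspanin gene of muscle stem cells, rose by 1.36 between fetal and neonatal arrays (SE 0.12, limma adjusted p = 5.08e-05), as Myod1 did, and Calcr, the calcitonin receptor gene, rose by 1.39 (SE 0.22) and again by 0.76 at the second step (SE 0.22, limma adjusted p = 0.0217). Its other probes changed by 1.56 (called) and 0.20 (not called) at the first step and by 0.40 (not called) and 1.15 (called) at the second. That second rise of Calcr was lost without neonatal replicate 1 (0.0653), neonatal replicate 3 (0.0727) or adult replicate 2 (0.0931). Notch3 (1.32, SE 0.18) and Rgs5 (2.61, SE 0.46) rose with Pax7 at the second step, and both are mural markers as well, a cell type whose marker list was higher in the same arrays (8 of 10 rose), with a part in these values that was not tested. Of 21 upstream regulators 1, Foxc1, rose and 3 fell from neonatal to adult cells, where 18.8% and 18.4% of all genes did, so the share of falls was near the background. The rise of Foxc1 was lost without neonatal replicate 2 (0.0517) or neonatal replicate 3 (0.0543), 3 genes rose without neonatal replicate 1 and 2 without adult replicate 3. The 3 falls were 1 without adult replicate 2; Pitx3 fell by 0.99 (SE 0.16, limma adjusted p = 0.000675).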

How the data were processed

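The deposited table holds probe intensities on a linear scale, from 1-colour Illumina bead arrays hybridised with biotin-labelled cRNA per the labels' protocols; how the authors normalized them is not stated in the labels. The quantiles of the 9 arrays differed by at most 0.04 on the log2 scale, so values were used as deposited, as log2 without a filter, although background remains in them. The deposited values of neonatal replicate 1 carry fewer decimals than those of the other arrays. Whether that array was processed differently is not known. Of 24538 probes 20211 had 1 gene symbol, 12 had several and 4315 were unnamed here. The Entrez identifiers of 20182 matched the RefSeq table of GRCm38.p6 and changed 0 symbols.

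All probes were fitted in R 4.3.3 with the lmFit and eBayes functions of limma 3.58.1 (two-sided tests), all 9 arrays sharing one spread; called means a Benjamini-Hochberg adjusted p under 0.05 over all probes. "Rose" and "fell" refer to called changes. A gene of a list was measured by its brightest probe (12488 genes, 4997 with more than 1 probe). Other probes were compared for the called changes of genes chosen by the rule below, some of them not described above. Of 93 such probes 59 were called with the same sign, 28 had the same sign and were not called, and 6 had the opposite sign, 0 of them called. The code of the fit was run on simulated data, in which each probe had the same spread at every age. That run does not test calls of probes whose spread differed between ages, such as Pax7 and Myog. Members and lists were chosen with earlier results of these data known. Genes were chosen by a rule, and not all of them are described above. They were the members, up to 4 called genes of smallest adjusted p per list and comparison, a fixed set (Pax3, which was in it, is not analysed here) and the 5 genes of most like pattern per called member, leaving out provisional symbols. Genes of the fixed set not described above include Cdkn1a, which rose by 1.10 from fetal to neonatal cells, and Cdkn1c, which fell by 1.31 from neonatal to adult cells. From fetal to adult cells Vcam1 rose by 0.77 and Msc fell by 0.36. These calls of Cdkn1a, Cdkn1c and Msc were lost under some alternatives. Tcf3, Tcf4, Hes6, Snai1 and Snai2 were named outside this rule, and their other probes were not counted. Alternatives covered normalization, background, filter, probe choice, variance prior, samples, replicate block and each array left out.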

Additional observations from a re-analysis of the deposited data

How the results depend on the processing

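The 5 probes were recomputed under 8 other settings and with each of 9 arrays left out. The rises of Pax7 (both comparisons with adult cells) and of Myod1 (both comparisons with fetal cells) kept their direction and their call under all of these. With a variance prior that follows intensity and is robust, Myf5 was called from neonatal to adult cells (0.26, adjusted p = 0.0467) and for the difference of steps (0.56, 0.0376), and the Myog fall (brighter probe) was not called (-1.56, 0.110). With only the 2 groups compared in the fit that fall was not called either (-1.56, 0.0698), and the fetal to neonatal rise of Myog was called (1.03, 0.0277). The difference of steps of Myog was called without dim probes (-2.59, 0.0494) and with the replicate block (-2.59, 0.0216). Deviations of same-numbered arrays correlated between -0.07 and 0.31, and 5 of 9 arrays correlated best with their own number. Whether the numbers mark a pairing or a shared batch was not tested. The block changed no other call of a member. Myf5 and the dimmer Myog probe could not be fitted without dim probes, which kept 3 of the 5 probes.

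With each array left out in turn, the Pax7 change ranged from -0.023 to 0.041 from fetal to neonatal cells and from 0.94 to 1.30 for the difference of steps, and the Myf5 change from -0.11 to 0.036 between fetal and adult cells. For the brighter Myog probe the ranges were 0.75 to 1.37 (neonatal against fetal), -2.28 to -1.07 (adult against neonatal), -1.25 to -0.038 (adult against fetal) and -3.31 to -2.03 (difference of steps). For the dimmer probe they were 0.38 to 0.79 (neonatal against fetal), -1.20 to -0.18 (adult against neonatal), -0.60 to 0.42 (adult against fetal) and -1.79 to -0.78 (difference of steps, called without adult replicate 3 at 0.0204). With lowest values subtracted the neonatal to adult change of the dimmer probe was -1.55 and not called.

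Over all probes 2543 were called from fetal to neonatal cells (1331 to 3030 with an array left out), 8092 from neonatal to adult cells, 9926 from fetal to adult cells and 3517 for the difference of steps (1154 to 5068; 2300 with lowest values subtracted). With 1 probe per gene, where fewer are tested, 1590, 4718, 5654 and 2173 were called.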
